A study of Mus musculus with 2 samples.

Results

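Mouse genes named *Zfp* with a number encode zinc finger proteins, the largest class of DNA-binding proteins of the mouse. The deposited table lists 362 of them among 21041 genes, and the 184 described here were chosen by their level, as the *Zfp* genes whose mean of the WT and the *Cxxc1*-deficient value was at least 50. RNA-seq was available for 2 samples of DP thymocytes, the CD4+CD8+ cells that make up most of the thymus, with 1 library for WT animals and 1 for *Cxxc1*-deficient animals. Per the study's methods, WT mice are *Cxxc1* fl/fl, and the deficient mice carry the same floxed alleles with h*CD2*-Cre, which is active from an early stage of T-cell development and in other immune cells. The genotype label of the deficient sample reads *Cxxc1*+/-, so the library was grouped by its title. The study's methods give the mice as a few weeks old unless stated otherwise, and the labels do not say how many contributed to a library. With 1 library per genotype there is no replicate check, no test was possible, and every difference below compares those libraries rather than the genotypes.

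Zinc fingers are small folds held by a zinc ion. Most *Zfp* proteins carry tandem fingers of the C2H2 type, in which successive fingers read successive bases of DNA. Many of them begin with a KRAB domain, which recruits the corepressor TRIM28 (KAP1) and, through it, the H3K9 methyltransferase SETDB1, and such proteins are known for silencing transposable elements. A small family around *Zfp36* (tristetraprolin) has fingers of the CCCH type instead, binds AU-rich elements in the 3′ ends of mRNAs and recruits the CCR4-NOT deadenylase, which shortens the poly(A) tail. Cxxc1 binds unmethylated CpG dinucleotides through its CXXC domain and carries the SETD1 complex, which trimethylates H3K4 at promoters. *Zfp36l1* and *Zfp36l2* are known to be needed together for normal thymocyte development.

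The 3 *Zfp36* family genes hold both the lowest and the highest ratio of the 184 genes, 3.53-fold lower and 2.16-fold higher, and the 250 bases before their transcript starts are shown because Cxxc1 binds CpG. The sequences were read from the mm9 genome (NCBIM37) upstream of the start of the longest GENCODE vM1 transcript, and each is on the minus strand. Capitals mark CpG dinucleotides.
Zfp36: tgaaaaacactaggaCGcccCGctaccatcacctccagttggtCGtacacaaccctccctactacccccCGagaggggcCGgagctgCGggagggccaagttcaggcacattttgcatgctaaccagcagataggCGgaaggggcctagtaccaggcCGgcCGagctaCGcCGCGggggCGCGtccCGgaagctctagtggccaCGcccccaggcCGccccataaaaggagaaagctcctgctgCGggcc
Zfp36l1: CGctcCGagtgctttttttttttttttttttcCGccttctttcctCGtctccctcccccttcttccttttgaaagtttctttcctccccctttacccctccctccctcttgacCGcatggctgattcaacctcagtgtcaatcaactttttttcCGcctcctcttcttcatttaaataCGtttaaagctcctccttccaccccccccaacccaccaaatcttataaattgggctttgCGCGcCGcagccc
Zfp36l2: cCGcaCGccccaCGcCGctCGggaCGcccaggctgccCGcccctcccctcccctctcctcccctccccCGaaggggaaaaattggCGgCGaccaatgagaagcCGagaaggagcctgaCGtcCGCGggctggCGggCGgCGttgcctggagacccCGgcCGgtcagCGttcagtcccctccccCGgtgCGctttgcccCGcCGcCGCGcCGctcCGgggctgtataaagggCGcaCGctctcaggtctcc
The first lies at chr7:29164275-29164524 and holds 18 CpG at a GC content of 64.8%. The second lies at chr12:81214001-81214250 and holds 10 CpG at 48.4% GC. The third lies at chr17:84587288-84587537 and holds 30 CpG at 73.6% GC. All 3 genes fell in the CpG-rich class used below. The study saw Cxxc1 signal raised at the centre of CpG islands, stretches dense in CpG. Only a small part of its Cxxc1 sites in DP cells lay in such islands. Cxxc1 binding and H3K4me3 at these 3 genes were not examined here. How the CpG content bears on the values was not tested.

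*Zfp36* (ENSMUSG00000044786.5, chr7:29161803-29164274, 2 exons) had a value of 1006 in WT and 285 in deficient cells, a 3.53-fold lower value. Of the set it had the lowest ratio, but 63 of the 200 genes outside the *Zfp* family nearest to it in mean had a ratio as low. *Zfp36l1* (ENSMUSG00000021127.6, chr12:81208747-81214000, 2 exons) had 122 in WT and 102 in deficient cells, 1.20-fold lower, and 26 of its 221 nearest genes had a ratio as high. *Zfp36l2* (ENSMUSG00000045817.7, chr17:84583271-84587287, 2 exons) went the other way, from 88 to 190, and was 2.16-fold higher. Only 1 of its 203 nearest genes had a ratio as high, and *Zfp36l2* was 1 of 12 genes at least 2-fold higher among the 2472 genes of the table with a mean of at least 100. The direction of *Zfp36* and of *Zfp36l2* was the same in the deposited values and under all 4 scalings of the libraries, with ratios from 0.283 to 0.565 and from 2.16 to 4.31, whereas *Zfp36l1* turned from 0.836 to ratios of 1.09 to 1.67 under 3 of the 4. The unit of the values is not named in the sources used here, so an order of values between genes is an order of deposited values, which may or may not be scaled by transcript length.

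The deposited values of the deficient library were lower for most genes above the background. They summed to 1551994 in WT and 981677 in deficient cells, while the median was 36 in each library, and the number of reads is not known. Markers of DP thymocytes were high in both libraries, with medians of 2166.5 in WT and 540 in deficient cells. They were lower in the deficient one in 10 of 10 genes as deposited and 9 of 10 under the high-gene scaling described below. Of 566 non-*Zfp* genes whose mean reached 250, 97.0% were lower as deposited. Under the high-gene scaling, 34.9% of all genes whose mean reached 50 were lower. Markers of B cells, erythroid cells, macrophages and thymic epithelium were mostly at the level of silent genes, with medians of 20, 19.5, 21 and 31 in WT and 25, 19, 27 and 26 in deficient cells; the highest, *Cd79b*, had 74 and 43. The alpha globin gene *Hba-a1* was listed at 0 in both. The targeted gene *Cxxc1* had 91 in WT and 50 in deficient cells, a ratio of 0.549 as deposited. With the libraries brought to equal medians over well-expressed genes (the high-gene scaling) it was 1.10, and under the other scalings 0.564, 0.719 and 0.811. With the olfactory receptor median subtracted it was 0.377. The study reports *Cxxc1* mRNA as almost undetectable by qPCR in deficient DP cells, and loss of the protein by western blot. Cre removes only some exons of the gene, and the deposited value is not split by exon. In bulk samples a lower value of a gene in every cell and fewer cells that express it cannot be told apart.

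*Zfp* genes reached a mean of 50 more often than the rest of the table, which includes the olfactory receptor genes. A mean of at least 50 was reached by 50.8% of the 362 *Zfp* genes and by 28.7% of all other genes. The 1122 olfactory receptor genes, which thymocytes are not known to use, gave the level of silent genes, with medians of 22 in WT and 24 in deficient cells. Their highest mean was 69, and 62 of them (5.53%) reached 50, so a mean just over 50 does not set a gene apart from them. Of the 184 *Zfp* genes, 112 (60.9%) had a mean above 69. The other 178 *Zfp* genes had medians of 34.5 in WT and 33 in deficient cells, 15 of them had a mean under 10, and 3 were listed at 0 in both libraries.

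**Figure D1:**
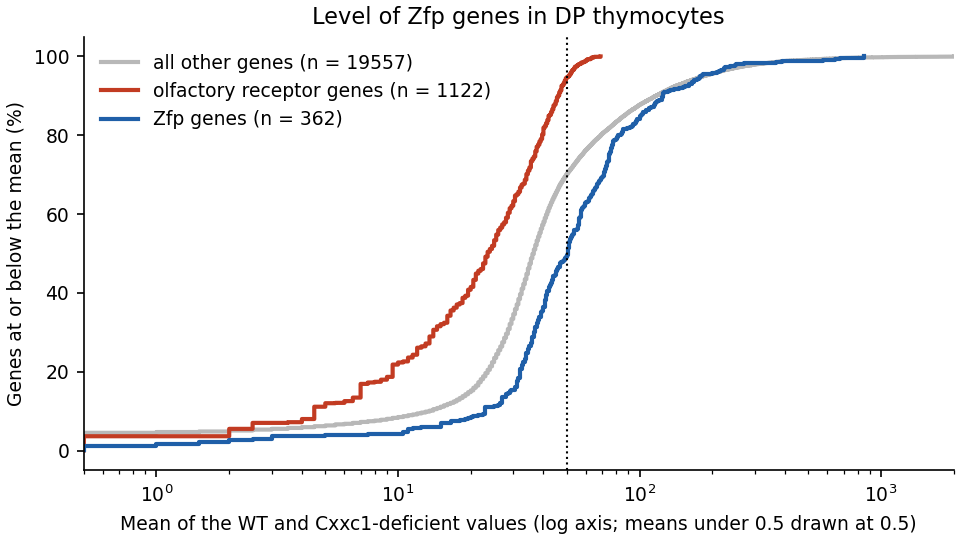
Cumulative share of genes (vertical axis, percent) by the mean of the WT and *Cxxc1*-deficient values (horizontal axis, log scale, deposited units) for the 362 *Zfp* genes, 1122 olfactory receptor genes and all other genes, with a dotted line at the mean of 50. At that line 50.8% of the *Zfp* genes lie above, against 5.53% of the olfactory receptor genes.

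The values of the 184 genes ran from 38 to 1198 in WT, with a median of 89.5, and from 29 to 495 in deficient cells, with a median of 62. They summed to 24735 in WT and 14836 in deficient cells, and the 10 genes with the highest mean held 25.4% of the WT sum. The rule of 50 passed through genes with no gap in level. *Zfp319* had 63 in WT and 37 in deficient cells, *Zfp703* had 38 and 62, and both had a mean of exactly 50. *Zfp759* came next with 42 and 59, together with other genes at a mean of 50.5. Just outside were *Zfp420* with 55 and 44, *Zfp516* with 57 and 41, and *Zfp568* with 51 and 47.

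Of the 184 genes, 162 (88.0%) had a lower value in deficient cells as deposited, against 87.7% of all genes with a mean of at least 50, but only 47.8% and 20.7% were lower when the libraries were brought to the same sum or to equal medians of the genes whose mean was 100 or more (the high-gene scaling). These scalings moved all genes alike, and the shares over all genes of that level were then 61.9% and 34.9%. The log2 ratios of the 184 genes (deficient over WT) had a median of -0.53 and quartiles of -0.95 and -0.25, against -0.77 for the 5945 other genes with a mean of at least 50. At least 2-fold lower were 38 genes (20.7%), against 34.9% of all genes of that level. At least 2-fold higher was 1 gene, *Zfp36l2*, against 0.587%. The remaining 21 genes with a higher value were less than 2-fold higher, and 18 of the 22 higher genes had a mean under 70. The other 4 were *Zfp36l2*, *Zfp672* with 107 in WT and 126 in deficient cells, *Zfp1* with 107 and 112, and *Zfp362* with 100 and 103.

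The ratio of a gene in these libraries depended on its level, so the *Zfp* genes were set beside other genes of the same mean. From a mean of 50 to under 60, the median log2 ratio was -0.23 in 49 *Zfp* genes and -0.36 in 1266 other genes. From 60 to under 75 it was -0.40 in 42 *Zfp* genes and -0.53 in 1124 others. From 75 to under 100 it was -0.64 in 36 and -0.73 in 1140. The *Zfp* genes thus lay less far below 0 than the other genes in each of these bins, and the same order held above them. From 100 to under 150 the medians were -0.59 in 28 *Zfp* genes and -0.95 in 1059 others, and 28.6% against 46.2% were at least 2-fold lower. From 150 to under 250 they were -0.99 in 21 and -1.09 in 790, and from 250 up they were -1.21 in 8 and -1.39 in 566. All of these medians are descriptions of 1 pair of libraries.

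**Figure D2:**
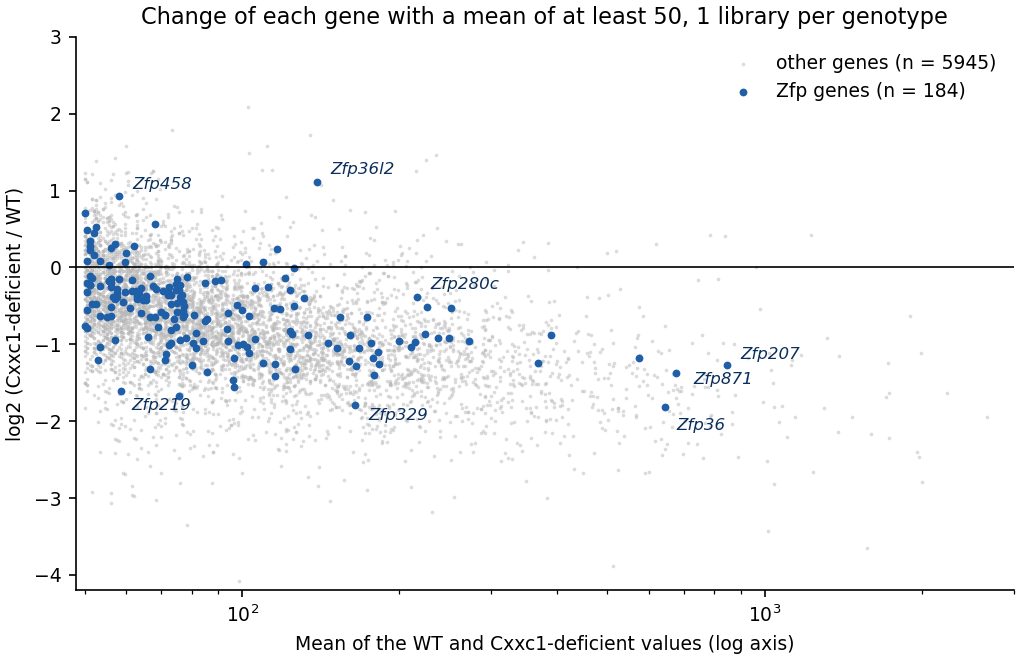
Log2 ratio of the *Cxxc1*-deficient to the WT value (vertical axis) by the mean of both (horizontal axis, log scale, deposited units), with each of the 184 *Zfp* genes in blue and 5945 other genes in grey, 10 of which lie outside the axes. Points fall further below 0 as the mean rises, and *Zfp36l2* stands above 0 at a mean of 139.

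**Figure D3:**
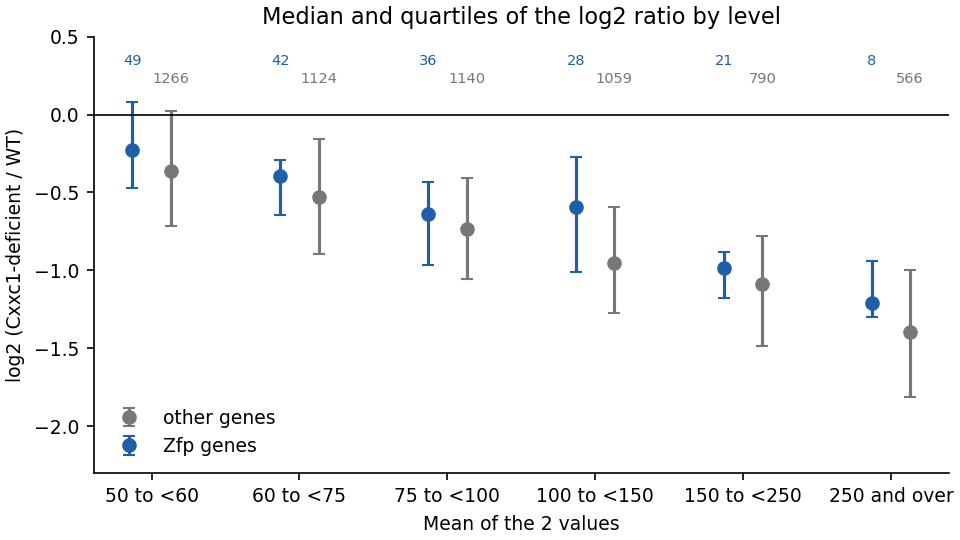
Median log2 ratio (points) with its quartiles (bars) in 6 bins of the mean, for *Zfp* genes in blue and other genes in grey, with the number of genes above each. The blue median is above the grey one in each of the 6 bins, and the quartile ranges overlap.

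For each *Zfp* gene, the median log2 ratio of at least 200 other genes nearest in mean was then subtracted from its own. The median of these differences was 0.12, with quartiles of -0.14 and 0.36, and 119 of the 184 genes lay above the median of their neighbours and 62 below. The difference was small beside the range of the genes themselves, whose log2 ratios ran from -1.82 to 1.11. It also depended on the rule, since it was 0.03 over all *Zfp* genes above 0 in at least 1 library, and -0.11 over the 178 genes under a mean of 50.

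The 10 *Zfp* genes of highest mean were all lower in the deficient library as deposited, and 5 were lower under the high-gene scaling. Most genes of that level were lower too. Of 566 non-*Zfp* genes whose mean reached 250, 97.0% were lower as deposited and 74.9% at least 2-fold lower. Of the 8 *Zfp* genes whose mean reached 250, 5 were at least 2-fold lower. Under the high-gene scaling, 34.9% of all genes whose mean reached 50 were lower. *Zfp207* (chr11:80196781-80219235), which encodes a protein that binds microtubules and acts in spindle assembly, had the highest mean, with 1198 in WT and 495 in deficient cells, 2.42-fold lower. *Zfp871* had 974 and 377, *Zfp280d* had 798 and 353, and *Zfp62* had 518 and 219. These 3 were 2.58-fold, 2.26-fold and 2.37-fold lower, and of the 200 to 202 genes nearest to each, 115 to 146 had a ratio as low. *Zfp292* had 506 and 275, *Zfp266* had 359 and 185, and *Zfp654* had 309 and 164. *Zfp644*, a partner of the H3K9 methyltransferases G9a and GLP, had 326 and 172, and *Zfp451*, a SUMO ligase, had 297 and 206. *Zfp451* was the least changed of the 10, at 1.44-fold lower, with 22 of 201 nearest genes as high. *Zfp280c*, the paralog of *Zfp280d*, had 245 in WT and 188 in deficient cells, 1.30-fold lower, beside the 2.26-fold of *Zfp280d*.

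The 6 lowest ratios began with *Zfp36* and went on with genes of lower level, where fewer neighbours were as low. *Zfp329* had 255 and 74, 3.45-fold lower, and 20 of its 203 nearest genes had a ratio as low. *Zfp942* had 115 and 36, 3.19-fold lower, with 16 of 213 as low. *Zfp219*, a partner of the NuRD remodelling complex, had 88 and 29, 3.03-fold lower, with 14 of 273 as low. The deficient values of *Zfp942* and *Zfp219* were at or under the table's median of 36, which is near the level of silent genes. *Zfp830*, which acts in pre-mRNA splicing, had 144 and 49, 2.94-fold lower, and *Zfp354c* had 141 and 51, 2.76-fold lower. At the other end, *Zfp458* had 40 in WT and 76 in deficient cells, 1.90-fold higher, and 2 of 279 nearest genes were as high. *Zfp703*, a transcriptional corepressor, was 1.63-fold higher, and *Zfp580* was 1.47-fold higher with 55 and 81. *Zfp109* had 43 and 62, 1.44-fold higher. The WT values of *Zfp458*, *Zfp703*, *Zfp580*, *Zfp109* and *Zfp759* were all within the range of the olfactory receptor genes, whose highest value in WT was 81.

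Among *Zfp* genes that act on RNA, 7 of the 8 listed had a mean of at least 50. Of these 7, 6 were lower as deposited, 4 with the libraries scaled to the same 75th percentile and 1 under the high-gene scaling. Over all genes with a mean of at least 50, the shares were 87.7%, 71.7% and 34.9%. Beside the *Zfp36* family, *Zfp106*, an RNA-binding protein, had 263 in WT and 136 in deficient cells. *Zfp598*, a ubiquitin ligase that recognises collided ribosomes, had 86 and 56, and *Zfp622*, which acts in maturation of the large ribosomal subunit, had 81 and 52. *Zfp346*, which binds double-stranded RNA, had 54 and 47. These 4 genes lay within 0.2 of the median log2 ratio of their neighbours. *Zfp385a* was under the rule, with 27 and 41.

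The subunits of the CCR4-NOT deadenylase, which acts with the *Zfp36* family, had lower values in 10 of 10 genes as deposited, 9 of 10 with the libraries scaled to the same sum, and 5 of 10 under the high-gene scaling. Their median log2 ratio was -1.01, and 5 were at least 2-fold lower. Of all genes whose mean reached 50, 87.7% were lower and 34.9% at least 2-fold lower as deposited. The CCR4-NOT genes were above most of these in level, with a median mean of 203. Their means ran from 57.5 to 568.5, so a bin around that median matches only some of them. Of 790 non-*Zfp* genes with a mean from 150 to under 250, 95.1% were lower and 59.4% at least 2-fold lower. The median log2 ratio of those 790 was -1.09. *Cnot6*, a catalytic subunit, had 899 and 238, and *Cnot2* had 715 and 225.

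Among sequence-specific activators, *Zfp143*, which acts at snRNA and many housekeeping promoters, had 97 in WT and 48 in deficient cells, 2.02-fold lower. *Zfp148* and *Zfp281*, paralogs that bind GC-rich elements, had 167 and 80, and 226 and 109. Their folds of 2.09 and 2.07 lower were close to each other, and 95 of 211 and 109 of 206 nearest genes were as low. *Zfp410*, known as an activator of *Chd4*, had 188 and 120, 1.57-fold lower. All 4 were lower as deposited and 3 were lower under the high-gene scaling, beside 87.7% and 34.9% of all genes with a mean of at least 50. *Zfp384* was under the rule, with 42 in both libraries, and *Zfp76* was not analysed here.

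Of the partners of chromatin complexes, 8 of the 12 in the table had a mean of at least 50. All 8 were lower as deposited, 4 with the libraries scaled to the same sum and 1, *Zfp219*, under the high-gene scaling. Over all genes with a mean of at least 50, the shares were 87.7%, 61.9% and 34.9%. *Zfp592* and *Zfp687*, which bind ZMYND8, had 126 and 115, and 70 and 58. *Zfp592* was among the least changed genes of its level, with 11 of 213 nearest genes as high. *Zfp217*, a partner of the LSD1-CoREST complex, had 116 and 96, 1.21-fold lower, with 25 of 208 as high. *Zfp518a*, a partner of G9a, had 289 and 159, and *Zfp609*, which acts with cohesin loading, had 83 and 53. Under the rule were *Zfp335*, a partner of H3K4 methyltransferase complexes that T-cell maturation needs, with 54 and 40, *Zfp532* with 35 in both, *Zfp462* with 34 and 30, and *Zfp518b* with 41 and 49. *Zfp638* was not analysed here.

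Other genes known from lymphocytes were close to their neighbours. *Zfp91*, a ubiquitin ligase of NF-kappaB signalling, had 234 in WT and 118 in deficient cells, 1.98-fold lower, and 115 of 202 nearest genes were as low. *Zfp318*, needed for IgD expression in B cells, had 60 and 43, near the level of silent genes. *Zfp683* was not analysed here.

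**Figure D4:**
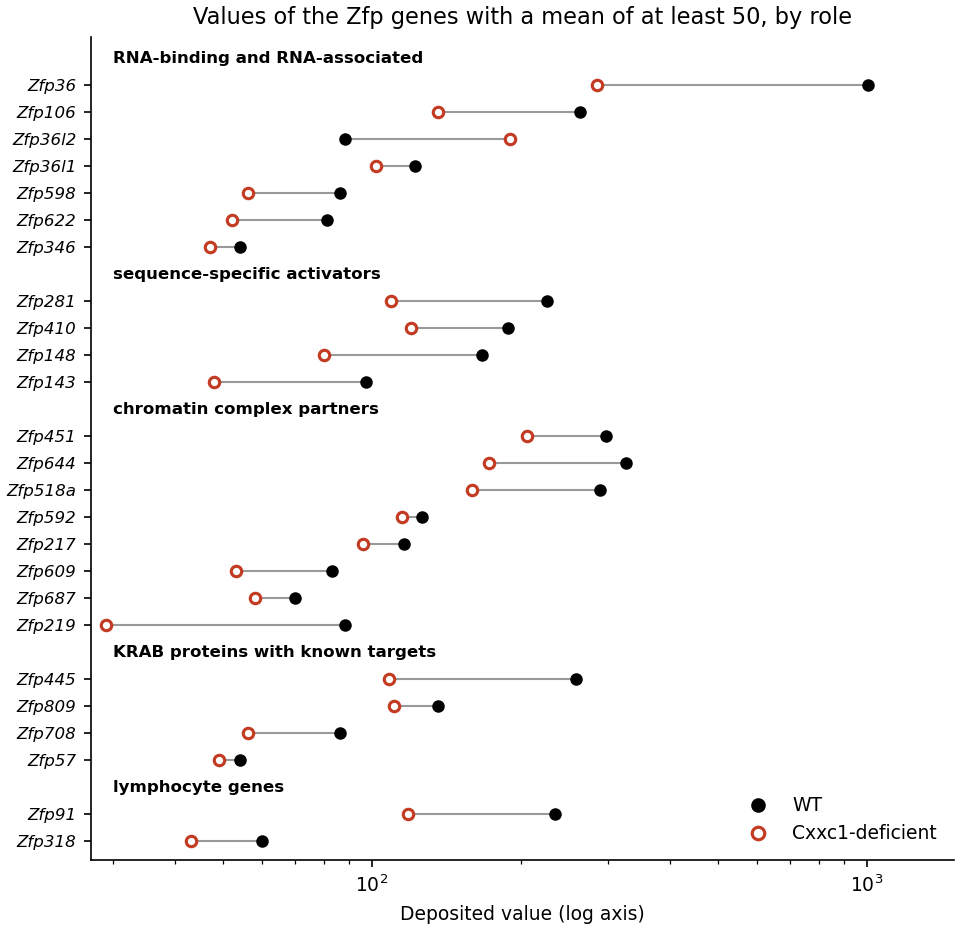
Deposited value (horizontal axis, log scale) in WT (filled black) and *Cxxc1*-deficient cells (open red) for the *Zfp* genes with a mean of at least 50 in each role list, 1 value per genotype and no error bars. The open point lies left of the filled one in each gene except *Zfp36l2*, where it lies to the right, at 190 against 88.

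A KRAB domain, searched as a pattern in the translated GENCODE vM1 coding sequences, was found in 95 of the 182 annotated genes. *Zfp* genes with and without the pattern reached a mean of 50 about as often, in 95 of 190 and 87 of 159 cases. Of the 95 KRAB genes 85 (89.5%) had a lower value as deposited and 46 with the libraries scaled to the same sum, and their median log2 ratio was -0.55. Of the 87 genes without the pattern 76 (87.4%) were lower, with a median of -0.53. A pattern can miss a domain, so these 87 may still include KRAB genes. The medians of the differences from genes of the same mean were 0.09 and 0.14. The groups overlapped, with log2 ratios from -1.68 to 0.93 in genes with the pattern and from -1.82 to 1.11 in genes without. The number of C2H2 fingers, at a median of 11 and a maximum of 36, did not order the median ratios either. The median log2 ratios were -0.64 in 31 genes with 1 to 5 fingers, -0.45 in 53 with 6 to 10, -0.63 in 56 with 11 to 15 and -0.49 in 36 with 16 or more. In these groups 25.8%, 26.4%, 19.6% and 8.33% were at least 2-fold lower, beside 34.9% of all genes with a mean of at least 50. Against genes of the same mean, their median differences were 0.17, 0.19, 0.05 and 0.14. Another 6 genes had no C2H2 finger by the pattern and a median log2 ratio of -0.24.

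KRAB proteins with known targets had a mean of at least 50 in 4 of 7 cases. All 4 were lower as deposited, 2 with the libraries scaled to the same 75th percentile and 1 under the high-gene scaling. Over all genes with a mean of at least 50, the shares were 87.7%, 71.7% and 34.9%. *Zfp445*, which with *Zfp57* keeps the DNA methylation of imprinted regions, had 258 in WT and 108 in deficient cells, 2.39-fold lower, and 95 of its 209 nearest genes were as low. *Zfp57* had 54 and 49, within the range of silent genes. *Zfp809*, which silences retroviruses through their proline primer binding site, had 136 and 111, 1.23-fold lower, and 20 of 211 nearest genes were as high. *Zfp708*, which binds a retrotransposon family, had 86 and 56. *Zfp568*, *Zfp819* and *Zfp932* were under the rule, with 51 and 47, 40 and 41, and 4 and 0.

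The genes through which KRAB proteins act had a mean of at least 50 in 15 of 21 cases, and 14 of these were lower as deposited, 5 under the high-gene scaling. As deposited, 5 of the 15 were at least 2-fold lower, near the 34.9% of all genes of that level, of which 87.7% were lower. *Trim28* had 154 in WT and 102 in deficient cells and *Setdb1* had 81 and 49. *Atf7ip* had 361 and 277, 1.30-fold lower, and the only gene of the 15 with a higher value was *Chd3*, at 58 and 63. *Atrx*, which deposits histone H3.3 with *Daxx*, had 862 and 329, and the HP1 genes *Cbx1* and *Cbx5* had 376 and 111, and 219 and 108. The median log2 ratio of the 15 was -0.80, beside -0.76 for all genes with a mean of at least 50. The median mean of the 15 was 115. Their means ran from 60.5 to 595.5, so a bin around that median matches only some of them. Non-*Zfp* genes with a mean from 100 to under 150 had a median log2 ratio of -0.95, and 46.2% were at least 2-fold lower.

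**Figure D5:**
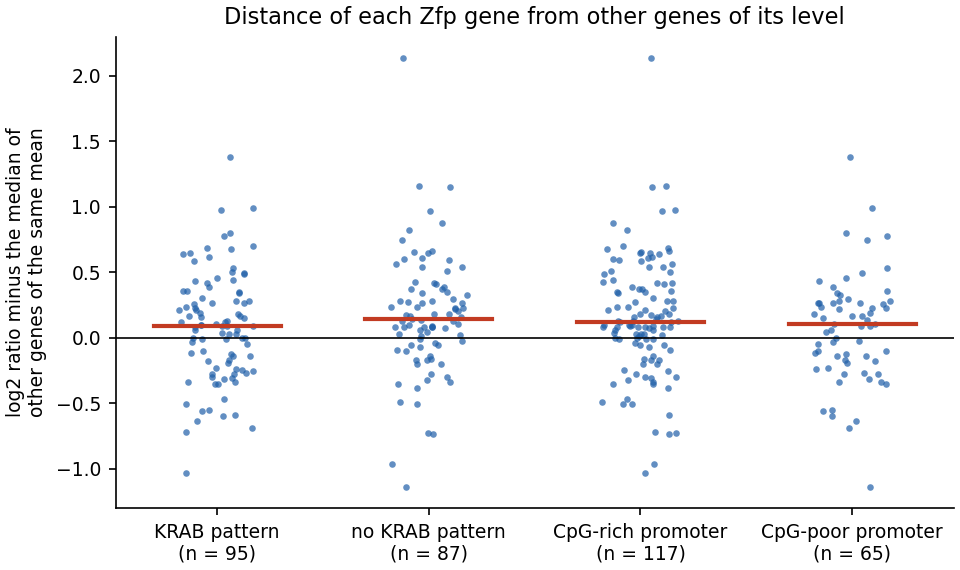
Log2 ratio of each *Zfp* gene minus the median of at least 200 other genes nearest in mean (vertical axis) by KRAB pattern and by promoter class, each point a gene and each red line a median. The red lines lie between 0.09 and 0.14, and the points of each class spread from below -1 to above 1.

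By promoter, 117 of the 182 annotated genes (64.3%) had a CpG-rich window from 250 bases before to 50 after the start, defined by an observed to expected CpG ratio of at least 0.6, against 74.3% of other genes with a mean of at least 50 and 48.5% of all genes. The median log2 ratio was -0.50 in the CpG-rich and -0.59 in the 65 CpG-poor *Zfp* genes. Among other genes it was -0.82 in 4112 CpG-rich and -0.57 in 1426 CpG-poor genes. The order of the *Zfp* classes was not kept with the promoters of RefSeq, which matched 154 genes, where the medians were -0.53 in 96 CpG-rich and -0.51 in 58 CpG-poor genes. Against genes of the same mean and the same promoter class, the median difference was 0.16 for CpG-rich and -0.06 for CpG-poor *Zfp* genes, and it was 0.15 and -0.04 with the RefSeq promoters. The start of the longest transcript need not be the start used in thymocytes.

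*Zfp* genes often lie in clusters of related KRAB genes, and 71 of the 182 annotated genes lay in 11 runs of at least 4 members with less than 500 kb between neighbours. Of these 71, 55 had a KRAB pattern. The run on chr13:67139530-67788008 holds 12 KRAB genes within 0.648 Mb, of which 10 were lower and 2 higher. It holds *Zfp458*, at 40 and 76, and *Zfp874a*, at 95 and 38, so a 1.90-fold higher and a 2.50-fold lower value lay in one cluster. In ratio, its remaining genes ran from *Zfp759*, at 42 and 59, to *Zfp87*, at 139 and 73. *Zfp874a* and its neighbour *Zfp874b*, at 87 and 51, are close copies, and genes of such clusters share sequence. The authors kept uniquely mapped reads, so the values of such genes rest on the stretches that map uniquely. On chromosome 17 the 12 KRAB genes of chr17:21145905-23330219 had a median log2 ratio of -0.63, and the 8 genes of chr17:32908181-33768724, *Zfp871* among them, had -0.83 and were all lower as deposited. Against genes of the same mean, the median differences of these chromosome 17 runs were 0.03 and 0.01. The run with the lowest median, -1.03, was that of 5 KRAB genes on chr8:71750242-72315077, where *Zfp866* had 113 in WT and 47 in deficient cells and *Zfp930* had 69 and 64. The run with the highest median, -0.04, was that of 4 genes on chr6:47785660-48395824, where *Zfp467* had 45 and 57 and *Zfp956* had 46 and 56. Their means of 51 lie within the range of silent genes. Against genes of the same mean, the median differences of the chr8 and chr6 runs were -0.20 and 0.44.

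By chromosome, the set was spread over 20 chromosomes, with 39 genes on chromosome 7 and 24 on chromosome 17. The median log2 ratio on the 8 chromosomes with at least 8 of the genes ran from -0.29 on chromosome 6 to -0.80 on chromosome 9. These chromosomes differed in level, with median means of 68.5 on chromosome 6 and 106 on chromosome 9. Against genes of the same mean, their median differences were close to each other, at 0.23 and 0.20. Members had fewer exons than other genes with a mean of at least 50, with a median of 4 against 9, and a similar transcript length, with medians of 3560.5 and 3485 bases.

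Genes of other zinc finger families with a mean of at least 50 were counted as *Zbtb*, *Zscan*, *Zkscan* and *Zc3h* genes. As deposited, 19 of 20, 5 of 5, 5 of 6 and 9 of 9 were lower, beside 87.7% of all genes with such a mean. Under the high-gene scaling 6 of 20, 1 of 5, 1 of 6 and 2 of 9 were lower, beside 34.9%. The families differed in level, with median means of 93, 85.5, 70.25 and 113, against 75 for the *Zfp* genes. Their median log2 ratios as deposited were -0.64, -0.74, -0.37 and -0.88, around the -0.53 of the *Zfp* genes. *Zc3h* genes, which share the CCCH finger with the *Zfp36* family, had the lowest of these median ratios, over 9 genes. They also had the highest median mean, 113, with WT values from 60 to 361. Non-*Zfp* genes with a mean from 100 to under 150 had a median log2 ratio of -0.95.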

How the data were processed

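Total RNA of DP thymocytes was sequenced as mRNA libraries. Per the submitters' processing notes, CASAVA 1.8.2, Bowtie 1.0.1, Partek and mm9 were used, and the authors kept uniquely mapped reads. As deposited, each value is a score, a normalized number that the authors rounded to whole numbers for every gene of each library, whose unit is not given in the sources used here. The depth is therefore unknown, and no counting interval is given.

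Samples were grouped by title. Ratios were taken between deposited values with a floor of 1. Each *Zfp* gene was compared with the other genes nearest in mean, 200 or more with all ties kept (200 to 323). No test was run. Members, lists and alternatives were chosen with earlier results of these data known. Named genes were the 10 of highest mean, the 6 of lowest and highest ratio, those next to the mean of 50, all role list genes, *Cxxc1* and at most 8 corepressors. The corepressors named were not all among those of highest mean. Genes named in runs, *Zfp280c*, *Zfp874b*, *Zfp1*, *Zfp672*, *Zfp362*, *Cd79b*, *Hba-a1*, *Cnot2* and *Cnot6* were chosen after their values were seen. Symbols were matched to GENCODE vM1, where 182 of 184 matched, and *Zfp65* and *Zfp572* did not. C2H2, CCCH and KRAB patterns were searched in translated coding sequences, KRAB in the first 350 residues. Alternatives were scalings of the libraries, subtraction of the olfactory receptor median, a pseudocount of 10, filters, thresholds and neighbour choices. Scripts ran under Python 3.11.15 with pysam 0.24.0, scipy 1.17.1, numpy 2.4.6, matplotlib 3.10.9 and pandas 2.3.3.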

Additional observations from a re-analysis of the deposited data

How the results depend on the processing

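The direction of the *Zfp* genes as a set depended on the scaling of the libraries. Scaling to the same 75th percentile, to the same sum (the 100 highest genes left out), or to equal medians of the genes whose mean was 100 or more (the high-gene scaling) shifted the median gene of the table, in log2, by 0.39, 0.56 and 1.00. The share of lower *Zfp* genes was then 59.8%, 47.8% and 20.7%, beside 71.7%, 61.9% and 34.9% of all genes with a mean of at least 50. The median log2 ratio of the *Zfp* genes was -0.14, 0.031 and 0.47. It was thus near 0 under the same-sum scaling, and the high-gene scaling reversed the direction. At least 2-fold lower were 8, 4 and 0 *Zfp* genes and at least 2-fold higher 3, 7 and 22. Under the high-gene scaling the median difference from genes of the same mean was 0.070, against 0.12 as deposited. With the olfactory receptor median subtracted, which shifts low and high genes unequally and moved the median gene of the table by -0.14, the median log2 ratio of the *Zfp* genes was -0.81, with 79 genes at least 2-fold lower and 3 higher. With no filter on the mean, 74.4% were lower, the median log2 ratio was -0.34, 7 genes were at least 2-fold higher and the difference was 0.031. Keeping genes from a mean of 100 up, 93.0% were lower, the median log2 ratio was -0.93, 23 genes were at least 2-fold lower and the difference was 0.18. Thresholds of 1.5-fold and 3-fold gave 87 and 4 lower and 3 and 0 higher genes. Taken over all *Zfp* genes that a setting kept, the median difference stayed above 0 under each alternative run, from 0.03 to 0.18. It did not in each part of the genes. Over the *Zfp* genes under a mean of 50 it was -0.11. Against neighbours of the same promoter class it was 0.16 in CpG-rich and -0.06 in CpG-poor genes of the set. Neighbours of the same promoter class or length class were chosen after seeing the data and gave 0.11 and 0.12. Causes were not tested. No paired analysis was possible because there is only 1 library of either genotype, and for the same reason no library could be left out. Rounding to whole numbers limits the ratios of low genes.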
